A study of Mus musculus with 16 samples.

Results

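Kidney tumors that formed in mice after a short pulse of reprogramming factors (called primary tumors here) were compared with tumors of this kind grown again by transplantation (secondary tumors). The comparison held 6 of the 16 arrays of the series, 3 secondary and 3 primary tumors, chosen by their titles. It covered 19938 genes, those with a probe set assigned to exactly 1 gene symbol, each represented by its probe set of highest mean over all arrays. Values are log2 of the deposited intensities, and a difference is the secondary minus the primary mean.

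In the reprogrammable mice, doxycycline switches the reprogramming factors on. They received it at 4 weeks of age for 7 days, and the primary tumors were taken 7 days after its withdrawal. Secondary tumors had been transplanted under the skin of immunodeficient mice. The mice derived from an ES cell line, so tissues had a 129xC57BL6 F1 or mixed 129 and C57BL6 background, and because the tumors arose in chimeras, ICR cells may be present in them. The other groups used here were 3 normal kidneys of mice of the same age and 1 array of ES cells, also of 129xC57BL6 background. A transplant can also hold vessels, connective tissue, muscle and fat of its host, whose strain is not stated in the sources used here. Nor are the time of growth under the skin, any doxycycline given to the hosts, the cell type that carried the factors, or which primary tumor a secondary tumor came from. Whether the 3 tumors of a group came from different mice is not stated, and the tests then weigh only how far these arrays scatter, part of which can be technical.

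The nephron reclaims most of what the glomerulus filters: the proximal tubule takes up glucose, phosphate, amino acids and organic anions, the loop of Henle and distal tubule recover salt, and the collecting duct adjusts water, sodium and acid. Each segment is known by its own transporters, under factors such as HNF4A and the HNF1 proteins. Pluripotent cells placed under the skin typically form teratomas, tumors in which neural, epithelial and connective tissues develop side by side. Before such tissues form, the embryo's epiblast responds to Nodal, a signal that sets up endoderm and mesoderm.

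Genes were sorted by their level in normal kidney, which was not part of the comparison. Kidney tissue genes had a mean of at least 9 in normal kidney and stood at least 2 above the ES cell array, and 931 genes met this. Genes low in normal kidney had a mean under 7.5 there, which held for 8626 genes. The remaining genes were high in both kidney and ES cells (5784) or intermediate (4597). Over all 19938 genes, 3693 (18.5%) were higher and 3475 (17.4%) lower in secondary tumors at an adjusted p under 0.05 in limma, and 7168 (36.0%) were called in either direction. At least 2-fold, 1488 (7.46%) were called higher and 870 (4.36%) lower. With each array centred on its median, 3132 were higher and 4921 lower, so calls in the higher direction went from 51.5% to 38.9% of all calls. The median difference over all genes was -0.07.

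The large falls and the large rises lay in different classes. Of the 870 genes that fell at least 2-fold, 504 (57.9%) were kidney tissue genes. Of the 295 that fell at least 4-fold, 262 (88.8%) were, and of the 72 that fell at least 16-fold, 68 (94.4%). Of the 1488 genes that rose at least 2-fold, 1007 (67.7%) were low in normal kidney, as were 376 of the 453 that rose at least 4-fold (83.0%) and 19 of the 22 that rose at least 16-fold (86.4%). A gene at the floor of the array cannot be seen to fall, and one near its ceiling can hardly be seen to rise. Of the 5784 genes high in both kidney and ES cells, 168 (2.9%) fell at least 2-fold, against 504 of 931 kidney tissue genes (54.1%) and 4.36% of all genes. The rises were less concentrated: 1007 of the 8626 genes low in normal kidney (11.7%) rose at least 2-fold, beside 7.46% of all genes.

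**Figure D1:**
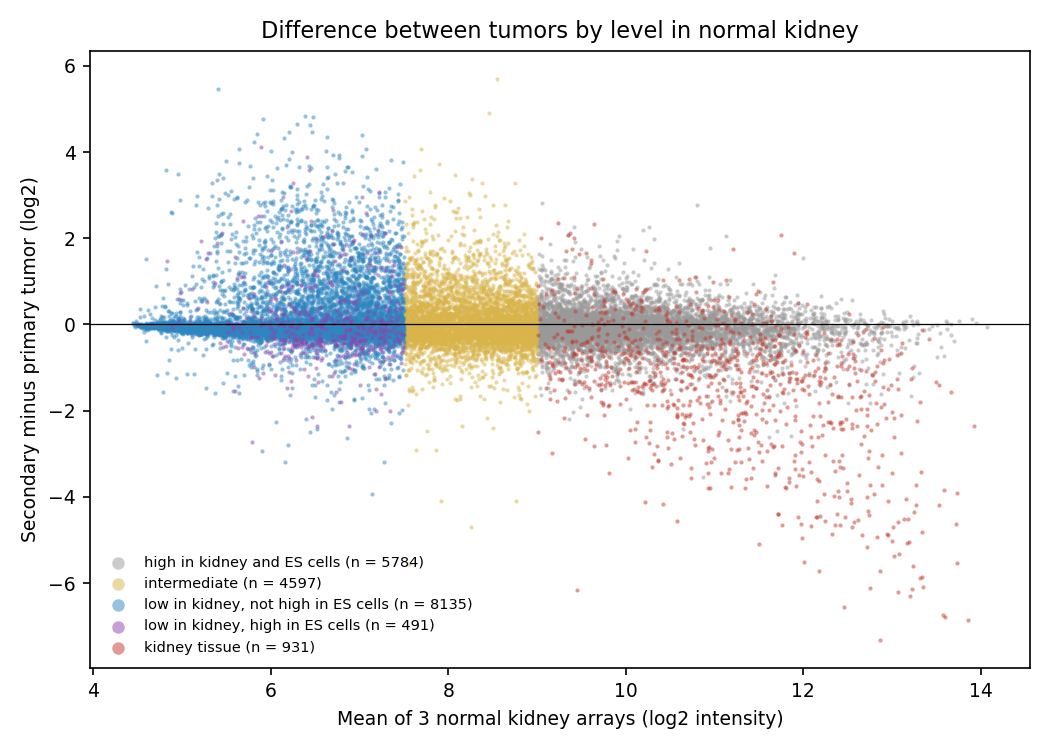
Each point is 1 of 19938 genes. The horizontal axis gives its mean log2 intensity over 3 normal kidneys and the vertical axis the secondary minus primary difference (log2), with colours for the 5 classes. Kidney tissue genes (n = 931) spread downwards at the right, and the upward spread at the left is made of genes low in normal kidney.

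Kidney tissue genes were at their highest in normal kidney, lower in each primary tumor and lowest in the secondary tumors. Of the 931, 626 (67.2%) fell, 51 rose and 254 were not called, beside 17.4% lower over all genes. Their median difference was -1.18 (quartiles -2.20 and -0.47). The class medians were 11.05, 11.09 and 11.01 in the 3 normal kidneys. They were 9.87, 9.43 and 8.86 in primary tumors 1, 2 and 3, and 8.09, 8.01 and 7.92 in the secondary tumors, against 7.36 in ES cells. Primary and secondary tumors did not overlap on this measure, and gene by gene all secondary tumors lay below all primary tumors for 639 of the 931, beside 32.6% of all genes.

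Set gene by gene against the normal kidney mean, primary tumors 1, 2 and 3 kept a median of 44.7%, 33.6% and 22.5% of the kidney intensity. The secondary tumors kept 14.5%, 13.4% and 12.6%. Under 10% of the kidney intensity were 20, 25 and 73 of the 931 genes in the primary tumors and 365, 373 and 385 in the secondary tumors. The secondary mean lay within 1 log2 unit of the ES cell array for 646 of the 931 genes, and the primary mean for 247. Primary tumors differed far more among themselves than secondary tumors on these genes. The median SD over the class was 0.53 in primary tumors, 0.12 in secondary tumors and 0.10 in normal kidney, while over all genes these were 0.13, 0.09 and 0.10. For 644 of the 931 genes the order of the primary tumors was the same, tumor 1 highest and tumor 3 lowest. In bulk tissue, fewer kidney cells and less of these transcripts per cell cannot be told apart.

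Genes that mark kidney against liver fell somewhat further. Of the 370 kidney tissue genes at least 2 above normal liver, 269 fell (median difference -1.51). Of the other 561, 357 fell (median -0.98). The liver was not part of the comparison, and this difference between the subclasses was not tested.

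The proximal tubule list lost 29 of its 32 members and gained none, with a median difference of -3.93. Slc13a1, the sodium-sulfate cotransporter, measured 12.91, 12.49 and 11.87 in the primary tumors and 5.20, 5.03 and 5.10 in the secondary tumors, against 12.86 in normal kidney and 5.34 in ES cells. All 3 primary tumors were near the kidney level and all 3 secondary tumors near the ES cell level, a fall of 7.31 on the log2 scale (SE 0.42; adjusted p 3e-08). Kap, a kidney androgen-regulated protein, measured 13.30, 12.21 and 12.12 in primary and 5.54, 5.50 and 6.02 in secondary tumors, a difference of -6.86 ± 0.73 (SE, as for all differences below). Ugt3a2, a glycosyltransferase, differed by -6.79 ± 0.30 and the lactate transporter gene Slc5a12 by -6.10 ± 0.55. Slc34a1, which reclaims phosphate, differed by -5.53 ± 0.61 and Lrp2, the protein uptake receptor megalin, by -2.97 ± 0.49. Hnf4a, the nuclear receptor that maintains proximal tubule identity, measured 11.74, 11.45 and 10.35 in primary and 7.40, 7.44 and 7.5 in secondary tumors (-3.73 ± 0.30). Outside the list, Keg1 (-6.73 ± 0.34), the cytochrome gene Cyp4a31 (-6.55 ± 0.22) and the sulfotransferase gene Sult1d1 (-6.20 ± 0.50) were among the 8 kidney tissue genes of largest fall. Near-identical Cyp4a copies can share probes.

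The distal segments fell as well. Of 16 loop and distal tubule genes 13 fell and none rose (median -2.18). Umod, which encodes the urinary protein uromodulin of the thick ascending limb, measured 13.05, 12.54 and 11.88 in primary and 6.23, 6.08 and 6.28 in secondary tumors (-6.29 ± 0.55). The salt transporter genes Slc12a3 (-5.16 ± 0.41) and Slc12a1 (-4.69 ± 0.44) and the potassium channel gene Kcnj1 (-4.62 ± 0.35) followed. Of 18 collecting duct genes 12 fell and 2 rose (median -1.34). Atp6v1g3, a proton pump subunit of intercalated cells, measured 9.51, 8.62 and 7.84 in primary and 5.93, 5.89 and 5.68 in secondary tumors (-2.82 ± 0.30). The sodium channel genes Scnn1g (-2.69 ± 0.30) and Scnn1b (-2.60 ± 0.27) and the water channel gene Aqp2 (-2.08 ± 0.39) fell. The secondary medians of the 3 tubule lists, 6.69 to 6.73, 6.61 to 6.69 and 6.80 to 6.82, were within 0.4 of those in ES cells (7.05, 6.62 and 6.92).

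Podocyte and nephron progenitor genes did not move as a block. Of 10 podocyte genes 4 fell and 2 rose, beside 17.4% lower and 18.5% higher over all genes. Podxl, the podocyte sialomucin that is also found on pluripotent cells, fell (-1.36 ± 0.25), and the phosphatase gene Ptpro rose (2.10 ± 0.15). Of 17 nephron progenitor genes 5 fell and 2 rose, beside the same shares over all genes. Pax8, a factor of the nephric lineage, fell from 11.70, 10.78 and 10.08 to 7.53, 8.08 and 8.09 (-2.95 ± 0.31), while Osr1, which marks intermediate mesoderm, rose (1.94 ± 0.47), as did the signal gene Wnt4 (1.10 ± 0.11). Six2, the defining gene of the progenitor cap, did not pass the test (-0.34).

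**Figure D2:**
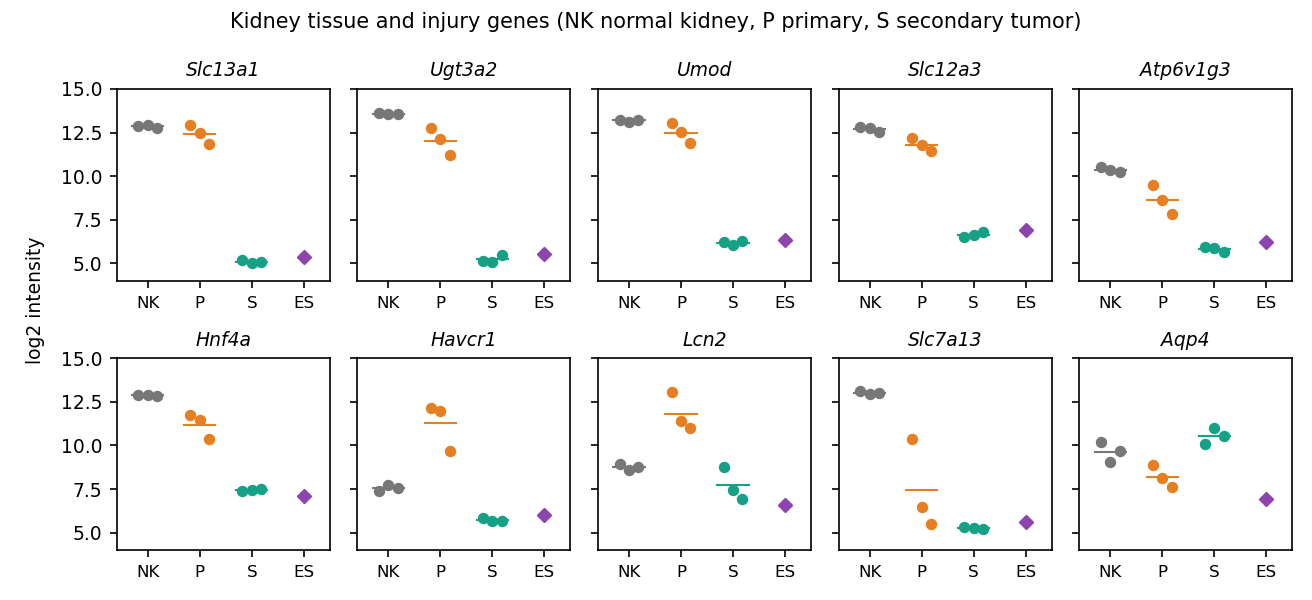
Log2 intensity of 10 genes in 3 normal kidneys (NK), 3 primary tumors (P), 3 secondary tumors (S) and the ES cell array, 1 point per array, with a line at the mean of each group of 3. Points run from replicate 1 on the left to 3 on the right; Slc13a1, Umod and Hnf4a sit at the ES cell level in all secondary tumors, and Havcr1 and Lcn2 are highest in primary tumors.

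Of the 32 proximal tubule genes 3 were not called. Slc7a13, a proximal tubule amino acid transporter, measured 13.02 in normal kidney, 10.35, 6.46 and 5.49 in the primary tumors and 5.31, 5.27 and 5.20 in the secondary tumors. The anion transporter gene Slco1a1 measured 9.82, 5.25 and 5.14 in primary tumors against 12.39 in normal kidney. In primary tumors 2 and 3 both were close to the secondary level, and neither difference passed (adjusted p 0.0749 and 0.17). Gatm, which makes the creatine precursor, was 10.44, 12.79 and 11.37 in primary and 11.33, 11.27 and 10.98 in secondary tumors (-0.34 ± 0.47, adjusted p 0.592), above the ES cell level of 8.13 in all 6. Of the 51 kidney tissue genes that rose, 44 had a secondary mean within 1 log2 unit of normal kidney or above it. Among them were Aqp4, a water channel of collecting duct and astrocytes (2.33 ± 0.35), Fabp7, a fatty acid binding protein of neural progenitors (1.05 ± 0.33), and the macrophage genes C1qb (0.81 ± 0.18) and Lyz2 (0.85 ± 0.29). Without secondary tumors 1, 2 or 3 or primary tumor 1 the Fabp7 difference no longer passed, and without secondary tumor 1 or 2 or primary tumor 1 that of Lyz2 did not.

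Genes of tissue injury were high in primary tumors and lower in secondary tumors. Of the 20 genes of the acute injury and inflammation list, 11 fell and 1 rose (median -0.98), and the list medians in primary tumors (9.59, 8.83 and 8.82) stood above those in normal kidney (7.20 to 7.43). Havcr1, the tubular injury molecule KIM-1, measured 12.17, 11.95 and 9.71 in primary and 5.85, 5.65 and 5.68 in secondary tumors, against 7.55 in normal kidney (-5.55 ± 0.46). Lcn2, which encodes the injury marker NGAL, measured 13.06, 11.38 and 10.99 in primary and 8.79, 7.48 and 6.92 in secondary tumors, against 8.77 in normal kidney (-4.08 ± 0.51). The fibrinogen gene Fgg (-4.69 ± 0.32) and Krt20 (-2.79 ± 0.54) fell too. Genes outside the list that fell were the other fibrinogen genes, Fga (-2.91 ± 0.42) and Fgb (-2.06 ± 0.26), and the endotoxin receptor gene Cd14 (-3.19 ± 0.55). For Havcr1, Lcn2, Fgg, Fga, Fgb, Krt20 and Cd14, primary tumor 1 was the highest of the 3. Anxa1, annexin A1, was the member that rose, from 7.69, 8.13 and 8.19 to 11.07, 11.10 and 10.72 (2.96 ± 0.25).

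Of 17 genes of hepatocytes or the visceral endoderm, 11 fell and none rose (median -1.12). Of the 17, 5 are kidney tissue genes. Hnf4a, which had the largest fall (-3.73 ± 0.30), and Amn are on the proximal tubule list too. The list holds Fga and Fgb, as well as the lipoprotein gene Apob (-2.07 ± 0.34) and the endoderm factor genes Gata4 (-1.99) and Sox17 (-1.49). Its medians were 9.91, 8.91 and 9.07 in primary tumors, 7.49 to 7.60 in secondary tumors and 7.86 to 8.12 in normal kidney, so the primary tumors alone stood above kidney.

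Fatty acid oxidation, oxidative phosphorylation and glycolysis genes fell to different extents. Of 23 fatty acid oxidation and peroxisome genes 18 fell and none rose (median -0.86). Ehhadh, the peroxisomal bifunctional enzyme, measured 11.89, 10.85 and 10.56 in primary and 7.16, 7.05 and 7.27 in secondary tumors (-3.94 ± 0.30), and Ppara, the receptor that drives such genes, fell too (-2.89 ± 0.42). Over the other settings tried, 12 to 22 of the 23 fell. Of 30 oxidative phosphorylation genes 18 fell and none rose, but the median difference was only -0.27, and the cytochrome c oxidase subunit gene Ndufa4 had the largest fall (-0.97 ± 0.08). Of 23 glycolysis and hypoxia response genes 13 fell and none rose (median -0.53). Here Ndrg1 (-3.43 ± 0.25) is a kidney tissue gene, but the glucose transporter gene Slc2a3 (-1.49 ± 0.19) and hexokinase 2, Hk2 (-1.24 ± 0.22), were low in normal kidney and high in primary tumors. Whether the kidney content of the primary tumors carries the list falls was not tested.

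Promoters of the genes that fell were searched for HNF1-like letters, since HNF1 factors act in the tubule. RefSeq windows (GRCm38.p6) from 250 bases before to 50 bases after the gene start were at hand for 15614 of the 19938 genes. In all, 10 patterns were counted on both strands, 4 for HNF1, 1 for HNF4 and 5 for the X-box of RFX factors described further below, and the 2 shown in capitals in the printed windows were picked after their counts were seen. The HNF1-like pattern was GTTAAT, 1 base of any kind, then ATT. It occurred in 66 of all 15614 windows (0.423%), in 16 of 732 kidney tissue genes (2.19%) and in 15 of the 500 of these that fell (3.0%). It also occurred in 8 of 520 genes low in normal kidney that fell (1.54%) and in 0 of the 25 windows of the proximal tubule list. The 3 longer forms extended it by AA, by any base and AC, or by any base and AC with a further free base in place of the A of ATT. They occurred in 11, 6 and 14 windows in all and in 5, 1 and 3 of 732 kidney tissue genes. The HNF4-like CAAAGTCCA occurred in 88 windows in all (0.564%), in 15 of 732 kidney tissue genes (2.05%) and in 1 of the 25 of the proximal tubule list. A match is a description of the letters and no evidence of binding. To show what such a window looks like, those of Sult1d1 (chr5:87568957-87569256, minus strand) and of the glucose-6-phosphatase gene G6pc (chr11:101367466-101367765, plus strand) follow 5′ to 3′ with the match in capitals. G6pc was chosen after its values and its match were seen. It measured 12.21, 11.81 and 10.42 in primary and 5.33, 5.78 and 5.70 in secondary tumors.
Sult1d1: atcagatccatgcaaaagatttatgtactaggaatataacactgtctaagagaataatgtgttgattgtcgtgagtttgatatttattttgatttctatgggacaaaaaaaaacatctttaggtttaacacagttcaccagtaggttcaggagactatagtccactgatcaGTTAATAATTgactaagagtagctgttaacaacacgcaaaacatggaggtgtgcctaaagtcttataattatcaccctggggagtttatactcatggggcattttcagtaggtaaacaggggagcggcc
G6pc: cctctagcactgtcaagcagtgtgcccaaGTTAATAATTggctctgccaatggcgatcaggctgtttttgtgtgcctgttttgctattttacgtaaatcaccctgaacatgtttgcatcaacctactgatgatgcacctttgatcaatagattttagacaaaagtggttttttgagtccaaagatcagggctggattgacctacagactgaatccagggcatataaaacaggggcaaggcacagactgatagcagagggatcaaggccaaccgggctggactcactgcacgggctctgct

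Genes low in normal kidney showed a smaller set of large rises over a background that hardly moved. Of the 8626, 1828 (21.2%) rose and 687 (7.96%) fell, beside 18.5% and 17.4% over all genes, and their median difference was -0.06. At least 2-fold, 1007 rose and 94 fell. The 376 that rose at least 4-fold had a median of 6.58 in primary and 9.28 in secondary tumors. Their median stood 0.05 above normal kidney in primary tumors and 2.77 above it in secondary tumors, and for 329 of the 376 the primary mean was within 1 log2 unit of normal kidney. For 44 it stood more than 1 above. Only 48 of the 376 (12.8%) belonged to any of the gene lists described next, among them 11 motile cilia, 11 neuron, 9 squamous, 7 airway, 3 oligodendrocyte and 2 astrocyte genes, so the lists leave most of these rises undescribed. Whether a gene was high in ES cells made little difference to the share that rose: 101 of 491 (20.6%) where the ES cell array was at least 2 above kidney and 1727 of 8135 (21.2%) elsewhere. More of the former fell, 80 (16.3%) against 607 (7.46%). No detection p accompanied the values, so dim genes could not be told from background. With only the 13292 genes of higher mean tested, 760 low genes rose and 241 fell.

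Of 28 neuron genes 24 rose and none fell (median 1.92), and the list median went from 7.71, 7.90 and 7.81 in primary tumors to 9.87, 10.30 and 10.20. Normal kidneys stood at 6.63 to 6.75. Syt1, a calcium sensor of synaptic vesicles, measured 6.66, 6.90 and 7.20 in primary and 10.64, 11.01 and 11.17 in secondary tumors (4.02 ± 0.22), against 6.62 in normal kidney. Its mean in normal liver was 10.08, so on these arrays it did not mark neurons alone. Slc17a6, a glutamate transporter of excitatory neurons, differed by 3.68 ± 0.15 and Snap25, a synaptic fusion protein, by 3.66 ± 0.66. In normal liver, the mean of Slc17a6 was 6.055 and that of Snap25 8.425, with a wide spread (SD 1.97). The potassium channel gene Kcnma1 (3.93 ± 0.21) and the migrating neuron gene Dcx (2.54 ± 0.27) were already above kidney in primary tumors, at 9.33, 9.53 and 9.71 for Kcnma1 against 6.77. The inhibitory neuron gene Gad2 rose by 2.40. Isl1 (-0.27) and Slc17a7 (-0.18) were not called.

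Glial genes rose as well. Of 16 astrocyte genes 12 rose and 1 fell (median 0.96). Gfap, the astrocyte intermediate filament, measured 6.40, 6.19 and 6.32 in primary and 11.17, 11.36 and 10.85 in secondary tumors (4.82 ± 0.13), with 6.47 in normal kidney and 6.52 in ES cells. All 3 secondary tumors lay more than 4 above all others. The glutamate transporter gene Slc1a3 (2.68 ± 0.42) and Gpr37l1 (2.40 ± 0.19) rose, and of the 16 genes 5 are also kidney tissue genes, among them Slc4a4, which fell (-2.02). Of 16 oligodendrocyte lineage genes 11 rose and none fell (median 1.02). Olig1, a factor of the lineage, measured 7.08, 7.03 and 7.18 in primary and 9.04, 9.91 and 10.07 in secondary tumors (2.58 ± 0.22), and Ptprz1, a phosphatase of glia and their precursors, differed by 3.35 ± 0.30. Myelin genes gave a mixed picture, with rises of Mbp (0.82 ± 0.12) and Mag (0.92) and no call for Mog (0.14) and Mobp (0.12). Of 20 neural progenitor genes 6 rose and 4 fell, near the shares over all genes (18.5% and 17.4%). Beyond the lists, Vsnl1 (4.65 ± 0.52), which encodes a neuronal calcium sensor, the adhesion genes Chl1 (4.46 ± 0.31) and Cntn1 (4.34 ± 0.24) and the glial adhesion gene Hepacam (4.46 ± 0.14) were among the 12 largest rises of genes low in normal kidney.

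Genes of squamous and airway epithelia rose. Of 29 squamous epithelium genes 24 rose and 1 fell (median 1.15). Krt5, the basal layer keratin, measured 6.59, 6.55 and 6.61 in primary and 10.75, 11.41 and 10.77 in secondary tumors (4.39 ± 0.22), and Krt4, a keratin of wet stratified epithelia, measured 6.06, 5.98 and 6.12 against 10.60, 11.57 and 10.51 (4.84 ± 0.21). Krt15 (3.91 ± 0.19), Krt6a (3.69 ± 0.21) and Trp63, the factor of basal cells (1.15 ± 0.15), rose. Secondary tumor 2 had the highest list median, 8.89 against 7.86 and 8.14. The one that fell, Tgm1 (-2.42 ± 0.43), was high in normal kidney. Of 26 airway and mucosal secretory genes 15 rose and 4 fell (median 0.95). Cyp2f2, a cytochrome of airway club cells, measured 6.94, 6.62 and 6.85 in primary and 12.44, 12.73 and 12.35 in secondary tumors (5.70 ± 0.20). Its mean was 13.53 in normal liver and 8.545 in normal kidney, so here it did not mark the airway alone. Reg3g, a secreted antimicrobial lectin, measured 5.12, 5.02 and 5.10 against 10.50, 10.98 and 10.13 (5.46 ± 0.16), and Bpifa1, a secreted protein of the upper airway, 5.85, 5.57 and 5.79 against 10.14, 10.36 and 10.99 (4.76 ± 0.29). Both were low in normal liver (means 5.28 and 6.04). The mucus genes Agr2 (4.02 ± 0.18) and Muc5b (3.27) rose, while Scgb1a1, the main secretory product of club cells, stayed near the floor in all 6 (4.77 to 5.02; difference -0.02). The surfactant gene Sftpc rose (1.71) and Sftpb fell (-0.32). Intestinal genes showed no such rise: 1 of 16 rose and 5 fell, led by Vil1 (-3.11 ± 0.46), which is also a tubule brush border gene.

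Motile cilia genes rose almost without exception. Of 30 genes 29 rose and none fell (median 1.46), beside 18.5% higher over all genes, and the list median went from 6.54, 6.49 and 6.67 in primary tumors to 8.56, 8.44 and 8.48. The primary values matched normal kidney (6.63 to 6.75) to within 0.3. Rsph4a, a radial spoke protein, measured 6.20, 6.0 and 6.57 in primary and 10.02, 10.17 and 10.09 in secondary tumors (3.84 ± 0.32). Dnali1, a dynein light chain, differed by 3.53 ± 0.11, Hydin, of the central pair, by 2.37 ± 0.10 and Tekt4, a microtubule protein of the axoneme, by 2.59 ± 0.11. The regulators rose less: Foxj1, the master factor of motile cilia, by 1.17 ± 0.08, Mcidas by 0.90 ± 0.14, and Rfx2 and Rfx3 by 0.77 ± 0.10 and 0.81 ± 0.14. Spag6 was not called (-0.05). Meig1 (4.41 ± 0.12) and Fam216b (4.33 ± 0.09) were among the 12 largest rises of genes low in normal kidney. With only the 13292 brighter genes tested, the numbers that rose were 14 for motile cilia, 14 for squamous, 3 for airway and 17 for neuron genes, since members dim on most arrays were then left out.

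RFX factors bind the X-box, a pair of inverted repeats found at cilia genes. Its loosest form tried reads GT, 2 bases of any kind, CC, 3 of any kind, G, 1 of any kind and AAC. On both strands it occurred in 435 of 15614 windows (2.79%), in 159 of 6533 windows of genes low in normal kidney (2.43%), in 45 of 743 low genes that rose at least 2-fold (6.06%) and in 4 of the 24 windows of the cilia list (16.7%). Stricter forms gave fewer. With the third free base fixed as G it occurred in 269 windows in all (1.72%) and in 2 of the 24, and with the middle fixed as ATGG in 70 and 0. The letters GTTGC and CATGG in 1 run occurred in 95 and 0, and GTTGC, any base, ATGG, any base and AAC in 18 and 0. The loosest form was kept after these counts were seen, so its share there is a description only. Both Tekt4 (chr17:25471340-25471639, plus strand, 2 matches) and Hydin (chr8:110266727-110267026, plus strand) hold it. Their windows follow 5′ to 3′ with the matches in capitals. The first match of Tekt4 reads in the direction printed, and its second match and that of Hydin match on the opposite strand.
Tekt4: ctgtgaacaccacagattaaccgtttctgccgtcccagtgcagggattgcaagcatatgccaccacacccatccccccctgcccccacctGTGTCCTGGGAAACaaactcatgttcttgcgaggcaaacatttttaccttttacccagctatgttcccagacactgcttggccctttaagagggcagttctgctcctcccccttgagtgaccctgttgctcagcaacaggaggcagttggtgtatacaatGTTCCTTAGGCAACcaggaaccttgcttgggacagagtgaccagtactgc
Hydin: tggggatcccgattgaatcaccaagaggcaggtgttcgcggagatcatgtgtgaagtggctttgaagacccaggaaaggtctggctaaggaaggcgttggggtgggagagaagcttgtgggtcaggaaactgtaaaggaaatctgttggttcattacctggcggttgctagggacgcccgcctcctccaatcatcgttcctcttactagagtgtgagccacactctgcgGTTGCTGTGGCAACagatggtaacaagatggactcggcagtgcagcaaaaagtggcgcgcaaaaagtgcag

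**Figure D3:**
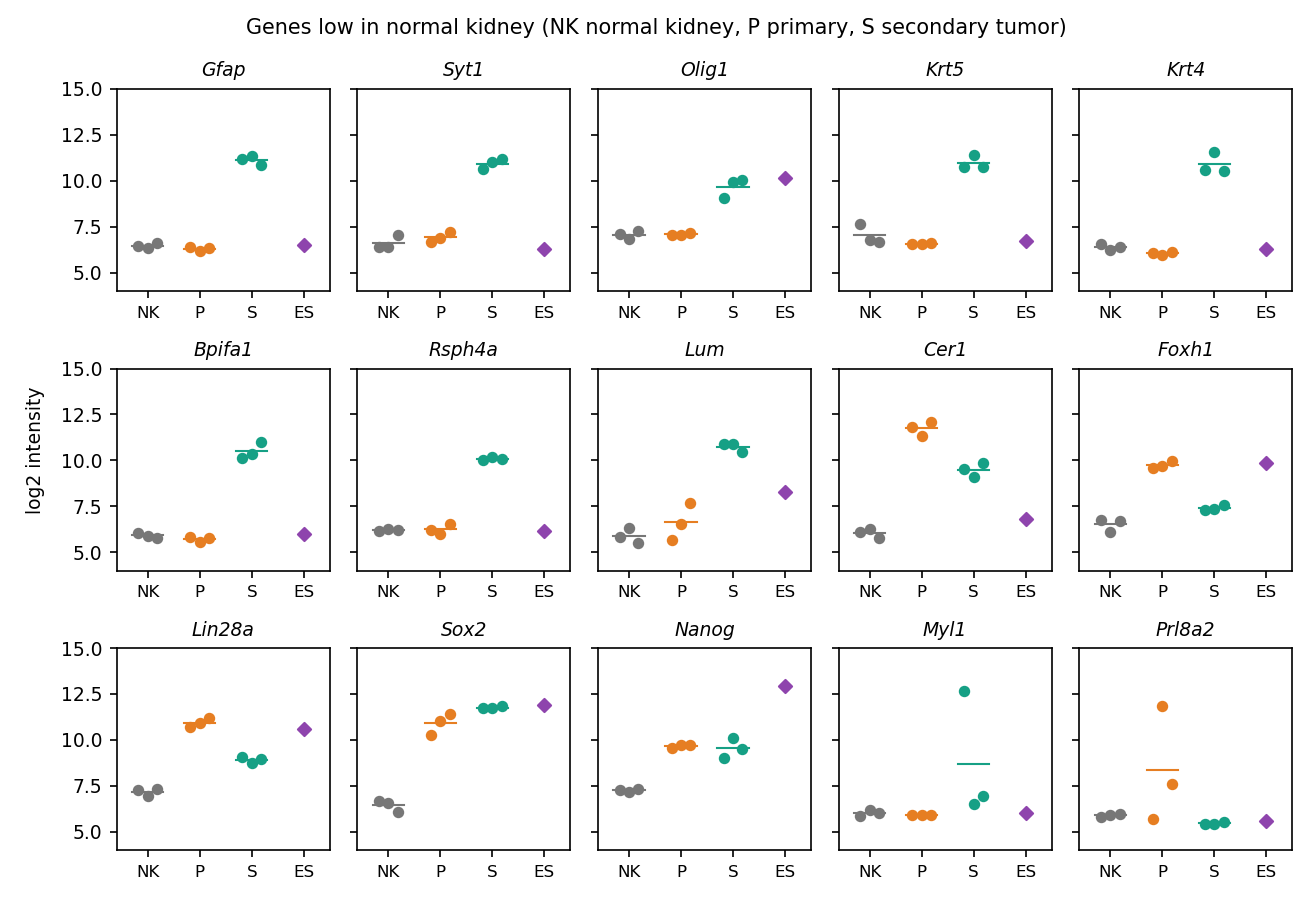
Log2 intensity of 15 genes low in normal kidney (NK), with 3 primary (P) and 3 secondary (S) tumors and the ES cell array, 1 point per array from replicate 1 to 3 and a line at each group mean. Neural, squamous, airway and cilia genes rise in all 3 secondary tumors, Cer1, Foxh1 and Lin28a fall, and Myl1 and Prl8a2 rest on single tumors.

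Connective tissue genes rose, and muscle and fat genes were high in 1 secondary tumor. Of 21 fibroblast and matrix genes 15 rose and 1 fell (median 1.64). Lum, the collagen-binding proteoglycan lumican, measured 5.68, 6.54 and 7.66 in primary and 10.87, 10.89 and 10.48 in secondary tumors (4.12 ± 0.52), and Col1a1, the main collagen of connective tissue, 9.46, 10.44 and 10.51 against 12.13, 12.09 and 11.65 (1.82 ± 0.39). In the primary tumors both were lowest in tumor 1. Of 22 skeletal muscle genes 1 rose and none fell, but 16 of the 22 stood more than 1 log2 unit higher in secondary tumor 1 than in both others. Myl1, a muscle myosin light chain, measured 12.65 there against 6.54 and 6.92 and was not called (adjusted p 0.0714). Over all genes, 78 stood more than 2 log2 units higher in secondary tumor 1 than in both others, 3 in tumor 2 and 0 in tumor 3. Of 11 adipocyte genes none was called in limma in either direction, and 10 were more than 1 higher in secondary tumor 1. Adipoq, adiponectin, measured 9.87 there and 5.51 and 5.55 in the others, and 9.98 in normal kidney 2 against 5.85 and 5.63 in the other kidneys. Summed over the list, log2 intensity ran from 11.55 to 15.02 in secondary and from 11.53 to 11.78 in primary tumors for skeletal muscle, and from 11.37 to 14.37 and 11.69 to 12.04 for fat. Myod1, the muscle master regulator, measured 7.94 in secondary tumor 1 against 6.85 and 6.99, and the brown fat gene Ucp1 stayed at 5.81 to 5.87 in all 3. Whether muscle or fat at the graft took part in other rises was not tested. Of 19 cartilage and bone genes 4 rose and 3 fell, near the shares over all genes (18.5% and 17.4%). Col2a1, the cartilage collagen gene, did not pass (-0.08). Of 12 smooth muscle genes 1 rose, the enteric actin gene Actg2, and 2 fell, and of 10 melanocyte and Schwann cell genes 1 fell. Of 10 erythroid genes 4 fell and none rose.

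Blood and vessel lists had small median differences: 0.33 for myeloid, -0.49 for lymphocyte, -0.17 for natural killer cell and -0.22 for endothelial genes. A larger share of the lymphocyte and endothelial genes fell than of all genes (17.4%). Of 21 myeloid genes 5 rose and 1 fell, beside 18.5% and 17.4% over all genes. The macrophage genes Mrc1 (1.77 ± 0.37) and C1qb rose, while the fall was that of Cd14, named beside the injury genes but not on their list. Over the other settings the number that rose ran from 0 to 9. Summed log2 intensity of the list was 13.95 to 14.25 in primary, 14.02 to 14.96 in secondary tumors and 12.52 to 12.73 in normal kidney. Of 19 B and T lymphocyte genes 8 fell and none rose, with small differences such as that of the T cell receptor chain gene Cd3e, 7.46, 7.86 and 7.66 against 6.76, 7.00 and 6.81 (-0.80 ± 0.17). All 19 were low in normal kidney. Over the other settings 3 to 12 of them fell, the 3 with only the 13292 brighter genes tested. The list medians in primary tumors, 6.54, 6.90 and 6.52, were close to normal kidney (6.50 to 6.61) and those in secondary tumors, 5.99 to 6.04, lower. The ES cell array also stood above the secondary tumors, with a list median of 6.435 and Cd3e at 7.76. A loss of lymphocytes cannot be read from values this dim. The hosts were immunodeficient, and the part of this in the lymphocyte genes was not tested. Of 12 natural killer cell genes 1 rose and 1 fell, the latter Eomes, which is listed with the early embryo genes too. Of 16 endothelial genes 5 fell, led by the VEGF receptor gene Flt1 (-1.47 ± 0.22), and none rose. Interferon response genes gave no call among 14 in limma and antigen presentation genes 1 among 12.

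Genes of the early embryo fell. Of 20 genes of the epiblast, the Nodal pathway and mesendoderm, 16 fell and none rose (median -1.40), beside 17.4% lower over all genes. The list median was 9.22, 8.78 and 9.32 in primary tumors, 7.79, 7.94 and 8.15 in secondary tumors and 6.77 to 6.95 in normal kidney. Foxh1, which carries Nodal signals to the genome, measured 9.60, 9.69 and 9.95 in primary and 7.28, 7.33 and 7.56 in secondary tumors (-2.35 ± 0.23), and Eomes, a mesendoderm factor, 10.27, 10.11 and 10.45 against 8.15, 7.99 and 8.24 (-2.15 ± 0.28). Cer1, a secreted Nodal antagonist, differed by -2.25 ± 0.51, Fgf5, a growth factor of the epiblast, by -1.81 ± 0.35 and Nodal itself by -0.92 ± 0.24. Cer1 stayed above normal kidney, at 9.53, 9.10 and 9.86 against 6.06. Lefty1 (-0.67) and Lefty2 (-0.57) did not pass. The retinoic acid degrading enzyme gene Cyp26a1 (-3.20 ± 0.32) and Hesx1 (-2.50 ± 0.37), a factor of the anterior embryo, were also among the 8 largest falls of genes low in kidney. The largest of the 8 was that of Slc7a12 (-3.92 ± 0.68), which is not on the early embryo list. It measured 6.87, 10.38 and 9.58 in primary tumors, against a mean of 7.15 in normal kidney. Cd14 and Krt20, named with the injury genes, were among the 8 too. Of the 94 low genes that fell at least 2-fold, 76 had stood more than 1 above normal kidney in primary tumors, and 58 were within 1 of it in secondary tumors. The 687 falls among low genes are less firm than the rises: 420, 410 and 422 remained as a count without secondary tumor 1, 2 or 3, and 326 without primary tumors 2 and 3. Prl8a2, a placental prolactin, rests on primary tumor 2 (5.68, 11.86 and 7.60 in primary tumors; adjusted p 0.0418) and was lost in 7 of the other settings.

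Pluripotency genes gave no clear direction. Of 26 naive pluripotency genes 6 rose and 7 fell (median -0.08), near the shares over all genes (18.5% and 17.4%). Pou5f1, which encodes Oct4, measured 10.05, 9.85 and 10.48 in primary and 8.25, 9.19 and 8.94 in secondary tumors, against 12.33 in ES cells (-1.33 ± 0.42, adjusted p 0.0263). This call did not hold without primary tumor 1 or 3, without secondary tumor 1 or 3, or without primary tumors 2 and 3. Sox2, a factor shared by ES cells and neural progenitors, measured 10.29, 11.02 and 11.39 against 11.71, 11.73 and 11.84 (0.86 ± 0.24), and this rise did not pass with the 6 arrays alone. Klf4 rose (0.88 ± 0.22) except where primary tumors 2 and 3 were left out, and Myc did not pass (-0.44 ± 0.25, adjusted p 0.19). Nanog measured 9.59, 9.70 and 9.73 in primary and 9.04, 10.08 and 9.49 in secondary tumors, overlapping, with no call (-0.13 ± 0.27, adjusted p 0.726). Dppa5a, an ES cell marker, rose from 6.63, 6.53 and 7.12 to 7.34, 9.47 and 8.47 (1.67 ± 0.38), far under its 13.03 in ES cells. A probe cannot tell an endogenous transcript from one of a reprogramming transgene where both hold its target.

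Fetal growth genes fell in part. Of 13 oncofetal genes 7 fell and 1 rose (median -0.92), beside 17.4% lower and 18.5% higher over all genes. The RNA-binding protein genes Lin28a (10.68, 10.92 and 11.16 against 9.09, 8.72 and 8.97; -2.0 ± 0.15) and Lin28b (-1.17 ± 0.19) and the factor gene Sall4 (-1.62 ± 0.15) fell, as did Prtg (-2.35 ± 0.13) and Trim71 (-1.86 ± 0.13). Igf2, the fetal growth factor, was 12.39, 12.45 and 12.55 in primary and 12.76, 12.73 and 12.64 in secondary tumors (0.25 ± 0.46, adjusted p 0.701), against 7.61 in kidney. Its groups did not overlap, and it passed with the 6 arrays alone. Of 21 other imprinted genes 10 rose and 3 fell, beside the same shares over all genes. Phlda2, a brake on placental growth, fell from 10.98, 11.13 and 10.53 to 7.20, 7.36 and 7.5 (-3.53 ± 0.17) and its neighbour Slc22a18 fell too (-3.11 ± 0.28), while Cdkn1c did not pass (0.01). Usp29 (2.69 ± 0.20) and the neuronal gene Ndn (1.48 ± 0.42) rose. Of 17 germ cell genes 5 rose and 1 fell, beside 18.5% and 17.4% over all genes. Among those that rose were Mael (2.13 ± 0.25) and Dazl (1.53 ± 0.37), the latter a rise led by secondary tumors 2 and 3 (7.80 and 7.17 against 5.62). With only the 13292 brighter genes tested, 0 of these rises were called by limma.

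Of 34 DNA replication and mitosis genes 5 fell and none rose (median -0.35), beside 17.4% lower and 18.5% higher over all genes. The largest falls were in replication genes, such as the cyclin gene Ccne1 (-0.89 ± 0.25) and the replication factor gene Mcm10 (-0.79 ± 0.16), while the proliferation marker Mki67 measured 10.82, 11.46 and 11.47 against 11.47, 11.14 and 11.29 (0.05 ± 0.23). Over the other settings the falls ran from 0, without primary tumors 2 and 3, to 18. Of 19 nucleolar and ribosome biogenesis genes 17 fell and none rose (median -0.56), such as Gnl3 (-0.74 ± 0.12) and the snoRNP methyltransferase gene Fbl (-0.64 ± 0.10). Without primary tumors 2 and 3, 4 of them fell. Of 23 Polycomb and DNA methylation genes 5 rose and 2 fell. The de novo methyltransferase genes moved apart, Dnmt3b falling from 10.72, 10.56 and 11.01 to 8.72, 8.50 and 9.01 (-2.02 ± 0.30) and Dnmt3a rising (0.41 ± 0.11). The factor gene Nfix had a large rise for a gene high in both kidney and ES cells, from 10.14, 9.77 and 9.24 to 12.47, 12.55 and 12.45 (2.77 ± 0.18). Of 15 p53 target genes 3 rose and 5 fell, and of 16 cholesterol synthesis genes 3 fell and none rose.

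Xist, the transcript of the inactive X, set the primary tumors apart from each other. It measured 5.60, 10.84 and 10.19 in primary tumors 1, 2 and 3 and 6.01, 6.12 and 6.32 in the secondary tumors, against 5.79 in normal kidney (-2.73 ± 1.33, adjusted p 0.13). The Y-linked gene Eif2s3y measured 10.04, 9.18 and 7.80 in primary and 9.67, 9.47 and 9.72 in secondary tumors, lowest in primary tumor 3. Without primary tumors 2 and 3, 698 kidney tissue genes fell and 1555 low genes rose.

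**Figure D4:**
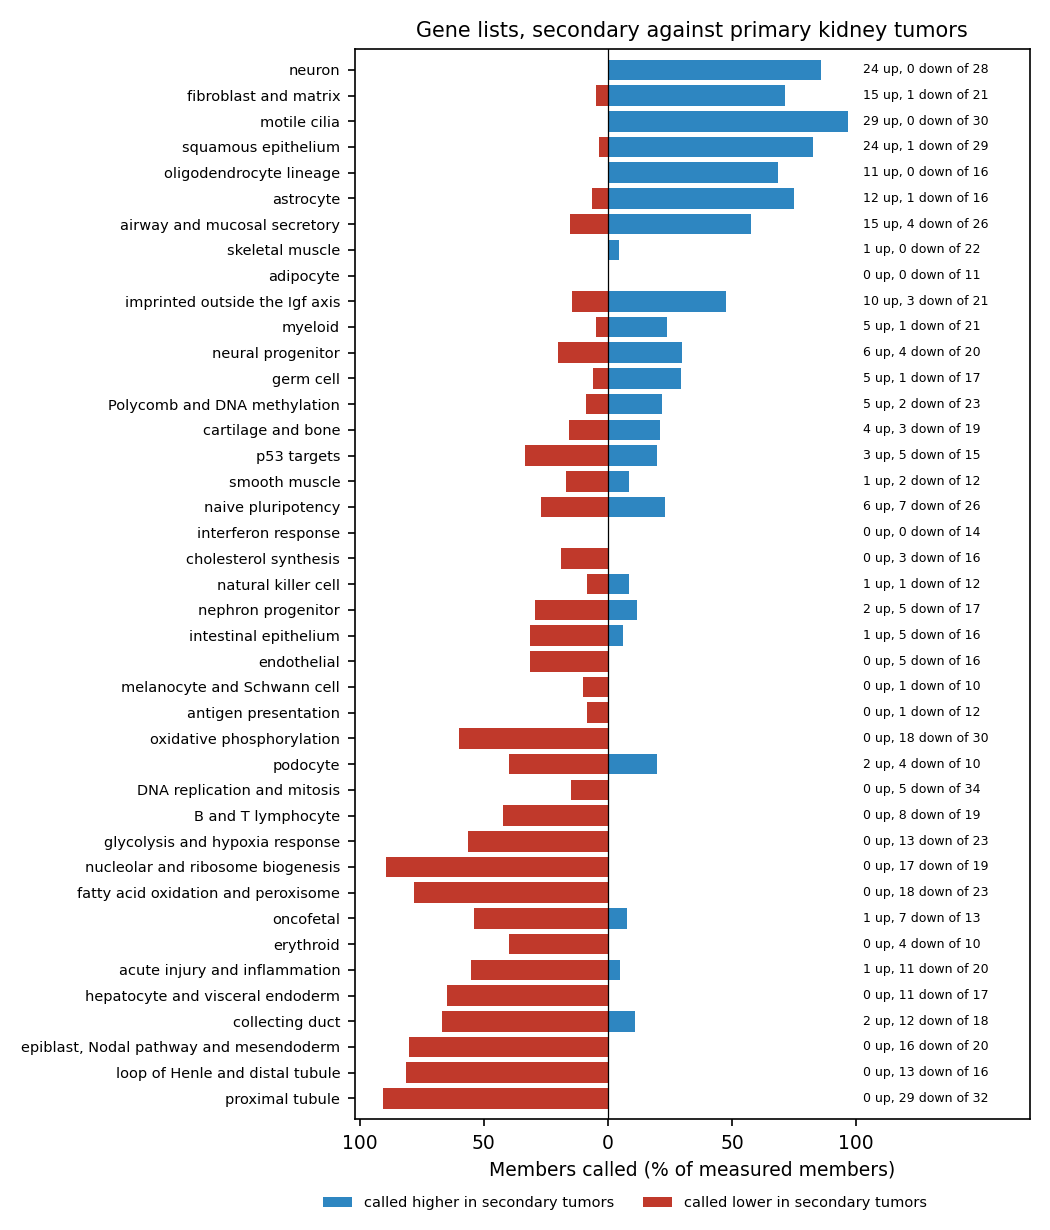
Share of the measured members of 41 gene lists called higher (right) or lower (left) in secondary tumors, in percent, ordered by the list's median difference, with the counts at the right. Neuron, cilia and squamous genes are mostly higher, and tubule, epiblast, nucleolar and fatty acid oxidation genes mostly lower, against 18.5% and 17.4% over all genes.

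**Figure D5:**
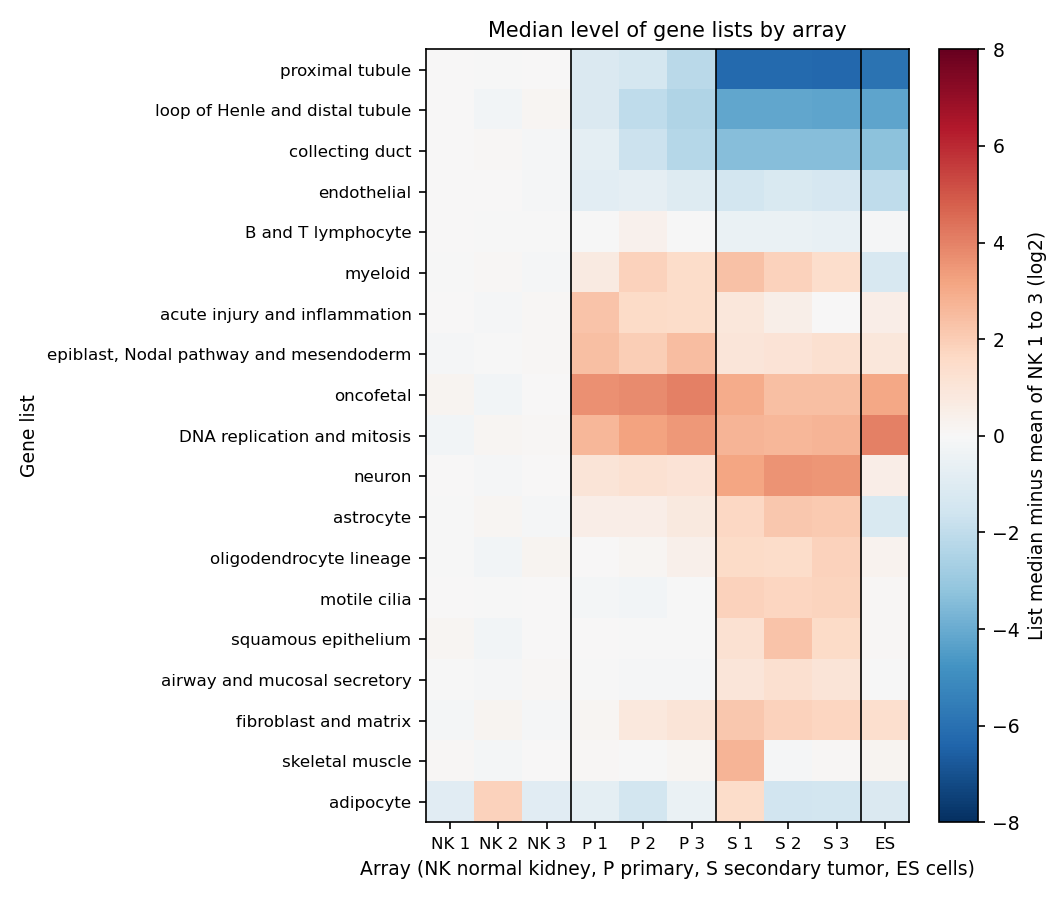
Median log2 intensity of 19 gene lists on each array, as the difference from the mean of the 3 normal kidney medians. Tubule lists are lower in all primary tumors and lowest in secondary tumors, neural, cilia and epithelial lists are higher in all secondary tumors, and skeletal muscle and adipocyte lists stand out in secondary tumor 1, the latter also in normal kidney 2.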

How the data were processed

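Labelled RNA of 16 samples was hybridised to 1-colour Affymetrix arrays, 1 array per sample, and 6 groups were assigned from the titles. The series matrix deposited by the authors holds a linear intensity for each of 28856 probe sets, from 20.7 to 20262, with array medians of 191 to 226. The background correction, normalization and summarization behind these intensities are named in no label or file header and so count as not given in the sources used here. No detection p-values accompany them. Intensities were taken to log2. The platform annotation of 2016 gave 1 symbol for 21789 probe sets, several for 1621 and none for 5446. The last 2 kinds were left out. Where several probe sets shared a symbol (999 genes), that of highest mean over all arrays was kept.

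A model with 6 group means was fitted over the 16 arrays with limma 3.58.1 (R 4.3.3; lmFit, eBayes), so 1 spread per gene was shared by all groups, although kidney tissue genes scattered more among primary tumors. P-values were adjusted by Benjamini-Hochberg over all 19938 genes, and genes under 0.05 were called. With 3 arrays against 3, an exact permutation test of 1 gene cannot go below 0.1, so none is given. The fit was tested on simulated data.

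The 42 gene lists (794 of 855 entries matched) and the members were chosen with earlier results of these data known, and lists share genes. Named genes were, among calls without overlap of the arrays, the 8 largest falls of kidney tissue genes, the 12 largest rises and 8 largest falls of low genes, the 5 largest of each direction in the other classes, up to 4 called members per list, and 10 genes fixed by name. Other list members, as examples or as exceptions, and G6pc were named after their values were seen. Alternatives were other normalizations, array weights, an intensity trend, other probe set rules and class limits, fewer genes and fewer arrays.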

Additional observations from a re-analysis of the deposited data

How the results depend on the processing

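Over the alternatives tried, the kidney tissue falls and the low gene rises held better than the low gene falls. Leaving out 1 array at a time gave 3197 to 3477 genes higher and 2536 to 3256 lower, with 569 to 691 kidney tissue genes lower, 1667 to 1765 low genes higher and 410 to 599 low genes lower. The low genes that fell (687) numbered 1172 with each array centred on its median, 241 with only the 13292 brighter genes, 1219 with array weights (a fit that stopped before its tolerance), 326 without primary tumors 2 and 3 together, and 456 with class limits of 10 and 7. The low genes that rose (1828) numbered 760 with the brighter genes only. With normal liver in place of ES cells to define kidney tissue genes, 316 of 540 fell (58.5%). The Nanog difference turned from -0.13 to 0.088 with array weights, and leaving out 1 array at a time it ran from -0.406 to 0.116. That of Xist turned from -2.73 to 0.55 without primary tumors 2 and 3. Neither was called, and the cause of these shifts was not tested. Same-numbered primary and secondary tumors hardly deviated together (correlations 0.037, 0.083 and 0.139), so the numbers were not taken to pair the samples, although each primary tumor correlated best with its own number, a hint from the data only. With the replicate block, fitted on the 6 arrays, 6159 genes were called (3283 higher and 2876 lower) against 7331 on the same arrays without it. There, 579 kidney tissue genes fell, 1646 low genes rose and 540 fell, 12 fatty acid oxidation genes fell and 0 myeloid genes rose, and of the 173 named genes 18 were no longer called, against 13 with the 6 arrays without the block and 23 without primary tumors 2 and 3. Dim genes have compressed differences on these arrays, so small changes near the floor may be missed.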
